A study of Danio rerio with 24 samples.

Results

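Potassium channel genes were followed across zebrafish development and early exposure to PCB126. This polychlorinated biphenyl acts like dioxin, as an agonist of the aryl hydrocarbon receptor. Every listed gene whose symbol, case ignored, starts with kcn was taken, which gave 126 of 32105 genes, in 19 subfamilies. They were read in 8 classes by role: 19 pore subunits of the Kv1 to Kv4 channels (kcna to kcnd), 12 EAG, ERG and ELK channels (kcnh), 9 calcium- or sodium-activated channels (kcnma, kcnn, kcnt), 8 Kv7 channels (kcnq), 12 silent Kv subunits (kcnf, kcng, kcns, kcnv), 29 inward rectifiers (kcnj), 21 two-pore leak channels (kcnk) and 16 auxiliary subunits (kcnab, kcne, kcnip, kcnmb). The names tables give 20 symbols to 45 of these genes, so that KCNJ1 alone stands for 7 genes, and Ensembl IDs are printed wherever a symbol is shared. Short reads that match several such copies may be divided between them or left uncounted, so values of co-named genes are uncertain to that extent.

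The 24 libraries are of total RNA, 3 in each of 8 groups. The labels number the libraries of a group and do not say whether they came from separate fish or pools, so p-values measure the spread between these libraries, which may be technical. Whole larvae were taken at 5 days post-fertilization (dpf) and brains of adults at the age of 4 months, both from fish exposed as embryos to 0.3 nM PCB126, 1.2 nM PCB126 or the solvent DMSO. Whole embryos at 48 hours post-fertilization (hpf) came from 0.3 nM PCB126 or DMSO. After exposure, all fish that grew to adulthood were kept in clean water, while strain, sex and fish per library are not stated in the labels. For the brains, the exposure named by the labels therefore lay months earlier. Brain RNA was purified by another method than RNA of embryos and larvae, so age, tissue and purification cannot be told apart between ages.

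Potassium channels let potassium leave or enter a cell along its gradient and so set the resting potential and end action potentials. Voltage-gated Kv and EAG-type channels open on depolarization, calcium-activated channels couple spiking to calcium entry, Kv7 channels carry the M-current that holds back repetitive firing, and inward rectifiers and two-pore channels hold the membrane near rest. Silent Kv subunits form no channel alone and modify Kv2 channels, while auxiliary subunits alter the traffic and gating of the pores. The roles given below are those known from mammals.

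Library totals ran between 12480715 and 23022236 reads, and the DMSO brains had 19498374 reads or more, against 18043641 or fewer in each exposed brain. Potassium channel genes took 0.312% to 0.357% of the reads in 0.3 nM brains, 0.337% to 0.348% in 1.2 nM brains and 0.264% to 0.301% in DMSO brains, against 0.113% to 0.121% in all larvae and 0.0465% to 0.0579% in all embryos. Levels below are CPM, the reads of a gene scaled by TMM to a common library size, and a gene was called at an adjusted p under 0.05 in edgeR's quasi-likelihood test, adjusted by Benjamini-Hochberg over all genes tested. CPM take no account of gene length, so levels are compared between groups and never between genes. KCNJ10 (ENSDARG00000105022) had no read in any library.

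The third DMSO brain library stood apart from the other 8 brain libraries. Its summed level of 7 pituitary markers was 244 CPM, against 4.92 to 31.3 CPM in the other 8. Its 4 skeletal muscle markers summed to 649 CPM, against 7.08 to 89.8 CPM in the others, and its 5 cartilage and bone markers summed to 862 CPM, against 32.4 to 171 CPM. It also held the lowest neuron marker sum, 1519 CPM, against 1862 to 2429 CPM in the others. Total counts of genes called against DMSO in brain are given with and without it. Counts by channel class and counts of genes without overlap are given only with it.

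In adult brain, potassium channel transcripts stood higher after either dose of PCB126 than after DMSO. Summed over all 126 genes, their level was 3171, 3506 and 3448 CPM in the 3 brains exposed to 0.3 nM. It was 3448, 3421 and 3329 CPM in the brains exposed to 1.2 nM, against 2963, 3045 and 2648 CPM in DMSO brains. Both exposed groups lay above every DMSO brain, and the third DMSO library was the lowest. The means were 3375 ± 179 CPM at 0.3 nM, 3399 ± 62.4 CPM at 1.2 nM and 2886 ± 209 CPM for DMSO (SD, n = 3 each), and the DMSO mean without the third library was 3004 CPM (n = 2). In bulk tissue, more RNA of a gene per cell and more cells that express it cannot be told apart.

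**Figure D1:**
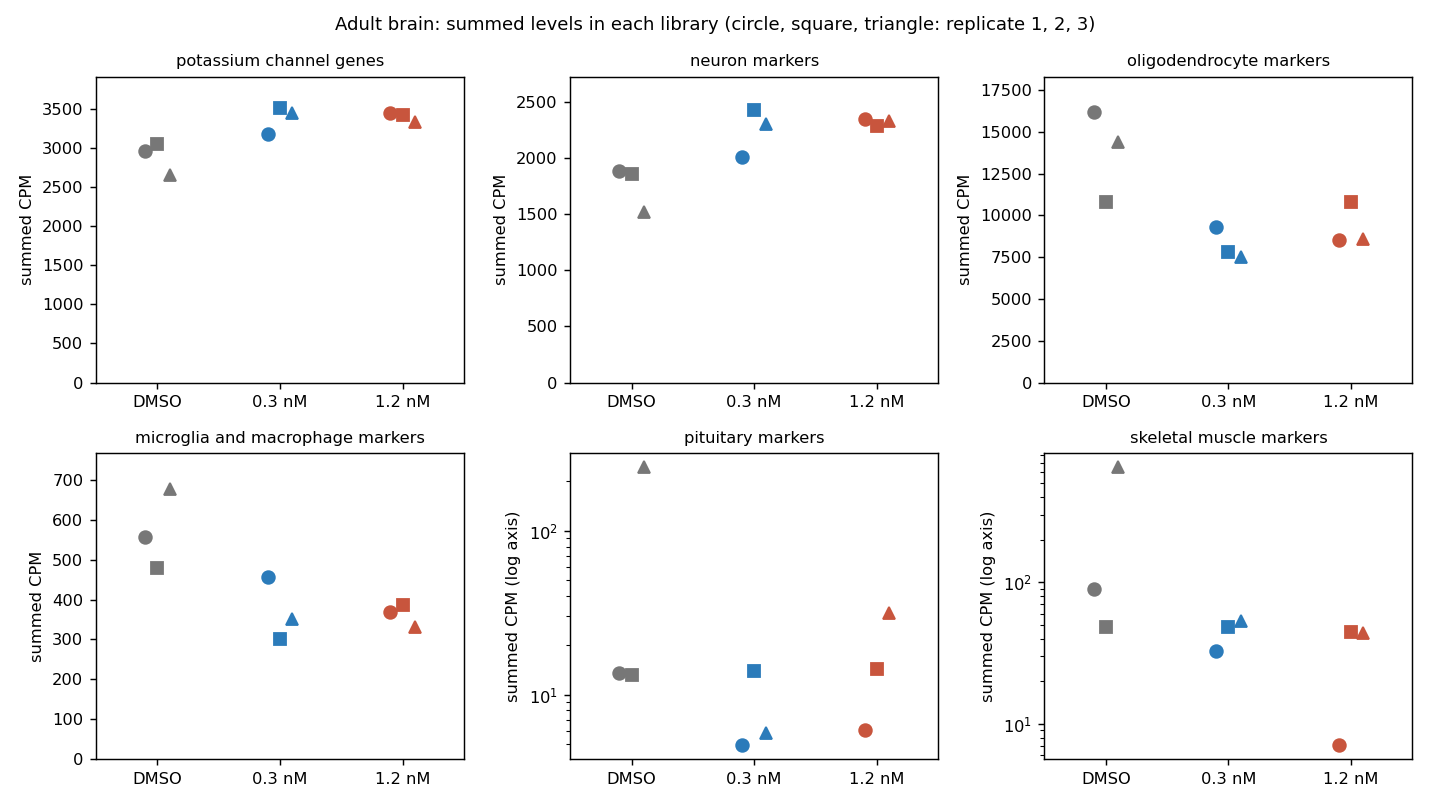
Summed CPM in each of the 9 adult brain libraries by dose, for all potassium channel genes and for 5 marker lists; symbols stand for replicates, and the pituitary and skeletal muscle panels have log axes. Potassium channel genes sum to 3171 CPM or more in exposed brains and to 2648 to 3045 CPM in DMSO brains, and the third DMSO library is far above the rest in pituitary and muscle markers.

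Markers of some cell types differed between exposed and DMSO brains as well. With all brain libraries, 7.82% of all genes tested were called higher and 5.9% lower at 0.3 nM, and 5.69% and 3.36% at 1.2 nM. Of the 6 neuron markers tested, 3 were called higher at each dose (ELAVL3, syn1 and map2), and the summed neuron level was 2014 to 2429 CPM at 0.3 nM and 2286 to 2353 CPM at 1.2 nM, against 1519 to 1887 CPM in DMSO brains. Oligodendrocyte markers summed to 7536 to 9331 CPM at 0.3 nM, with 4 of 10 called lower, and to 8544 to 10815 CPM at 1.2 nM, with 1 of 10 called lower, against 10791 to 16176 CPM in DMSO brains. Microglia and macrophage markers had 3 of 7 called lower at each dose, and astroglial markers 2 of 3 at 0.3 nM and 1 of 3 at 1.2 nM. Heart markers were near 0, at 2.8 CPM or less in sum in every brain library. Of the bone markers tested, 1 of 4 was called lower at each dose, and no pituitary, muscle, endothelium and blood, or ionocyte and kidney marker was called. Without the third DMSO library, the neuron markers had 3 called higher at each dose, and those called lower were 1 astroglial, 1 oligodendrocyte and 1 microglial marker at 0.3 nM and 1 microglial marker at 1.2 nM. None of the markers was called at 1.2 nM when any 1 exposed library was left out. The part of these shifts in the potassium channel result was not tested.

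At 0.3 nM, 17 of the 100 potassium channel genes tested in brain rose and 1 fell, where 7.82% of all 19548 genes tested were called higher and 5.9% lower. The median log2 fold change was 0.18 over the 100 and -0.02 over all genes. All 0.3 nM brains lay above all DMSO brains for 32 of the 100 and below them for 7, against 16.3% of all genes in each direction. The 26 genes not tested had at most 20 reads in any brain library, and 11 of them were inward rectifiers. Without the third DMSO library, 8 rose and 1 fell, all 9 of them among the 18 first called. The shares over all genes given above are those of the fit with all brain libraries. They are no reference for counts from other fits. Left-out libraries moved the count between 8 and 23, and it was 10 when DMSO replicate 1 was left out and 8 when either replicate 2 or replicate 3 of the 0.3 nM brains was. Fitting the 2 groups alone gave 8. In a fit of all 24 libraries, chosen after seeing the data, 22 rose and 4 fell, and the balance over all genes there was 1865 higher and 2255 lower, against 1529 higher and 1154 lower when brain was fitted by itself. That fit also tested genes with too few brain reads for the brain fit, so its counts are not out of the same 100. Among those that fell in it was kcna7, with at most 20 reads in any brain library.

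**Figure D2:**
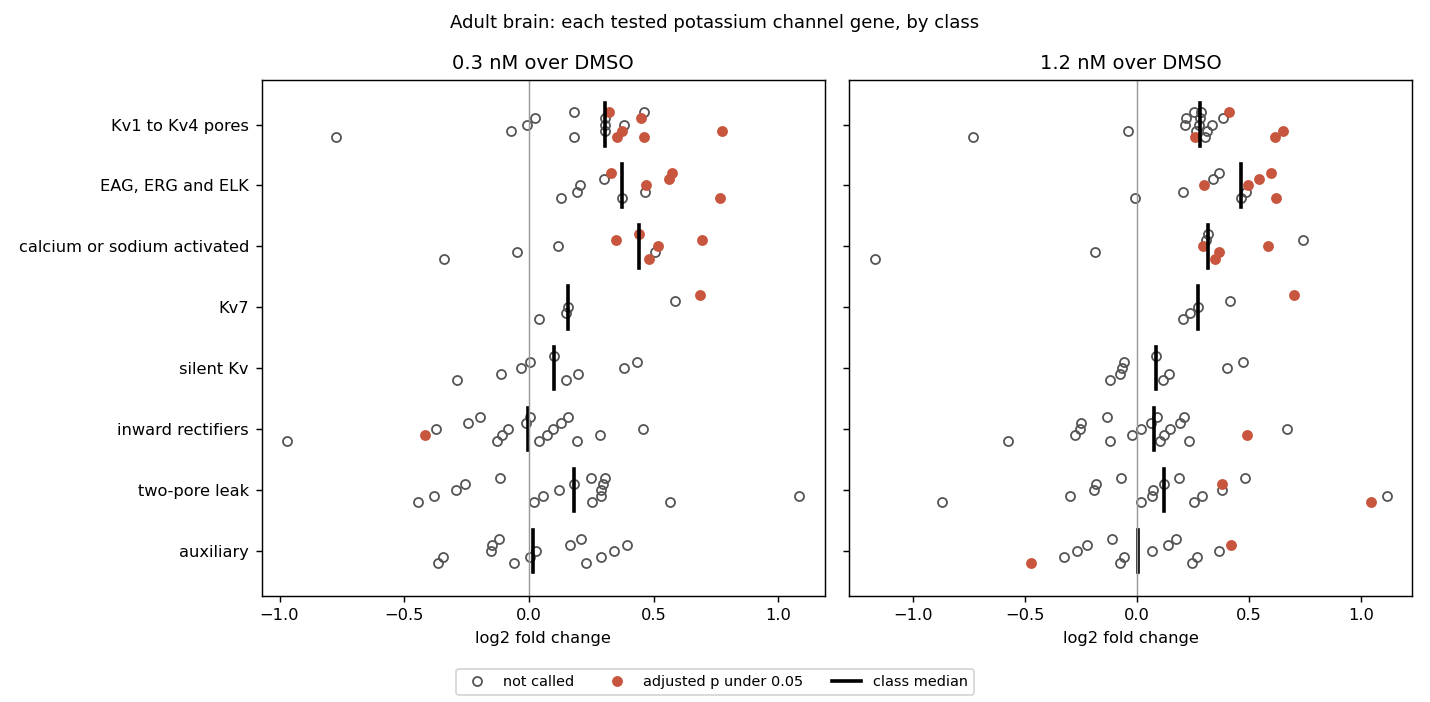
Log2 fold change of each of the 100 potassium channel genes tested in adult brain at 0.3 nM and at 1.2 nM over DMSO, by class; filled points had an adjusted p under 0.05 and bars are class medians. At 0.3 nM the class medians run between -0.00 for inward rectifiers and 0.44 for calcium- or sodium-activated channels, and the 17 genes called higher lie in the first 4 classes from the top.

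The class counts at 0.3 nM, here and below, are those of the fit with all brain libraries. Among the calcium- and sodium-activated channels, 5 of 9 rose at 0.3 nM and the class median was 0.44. The small-conductance channel gene kcnn1a, whose channels open with intracellular calcium and produce the afterhyperpolarization, was at 121, 136 and 137 CPM in 0.3 nM brains, against 94.6, 92.1 and 88.7 CPM in DMSO brains. Every exposed brain lay above every DMSO brain (log2 fold change 0.52, SE 0.08, adjusted p = 0.00588). Its paralog kcnn1b was at 9.07, 12.6 and 12.5 CPM in 0.3 nM brains, against 7.25, 7.32 and 6.45 CPM in DMSO brains. The groups did not overlap (log2 fold change 0.70, SE 0.14, adjusted p = 0.0126). KCNMA1, the pore of the large-conductance BK channel, opened by calcium and voltage together, was at 275, 304 and 292 CPM in 0.3 nM brains, against 208, 227 and 189 CPM in DMSO brains (0.48, SE 0.08, adjusted p = 0.00832). KCNN2, another small-conductance channel, was at 30.8, 36.9 and 38.5 CPM, against 28.4, 26.3 and 23.5 CPM in DMSO brains (0.44, SE 0.10, adjusted p = 0.0211). For both genes all exposed values were above all DMSO values, by a narrow margin for KCNN2. The sodium-activated KCNT1 (ENSDARG00000104868) also rose (0.35, SE 0.10, adjusted p = 0.0381).

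Of the voltage-gated Kv1 to Kv4 pores, 6 of 17 rose at 0.3 nM. KCND3, a Kv4 pore that carries the fast A-type current of dendrites, was at 64.3, 72.4 and 72.3 CPM in 0.3 nM brains, against 46.9, 44.2 and 31.2 CPM in DMSO brains. The groups were well apart, with the third DMSO library the lowest (log2 fold change 0.77, SE 0.13, adjusted p = 0.00797). KCNA2 (ENSDARG00000102064), an axonal Kv1 channel, was at 78.5, 86.7 and 82.0 CPM in 0.3 nM brains, against 65.7, 65.0 and 60.3 CPM in DMSO brains (0.37, SE 0.07, adjusted p = 0.00957). KCNC1 (ENSDARG00000032959), a Kv3 channel of fast-spiking neurons, was at 32.4, 33.2 and 33.7 CPM in 0.3 nM brains, against 26.4, 23.7 and 21.9 CPM in DMSO brains (0.46, SE 0.09, adjusted p = 0.0120). In both, the exposed brains lay close together and above all DMSO brains. The other called pores were KCNC1 (ENSDARG00000051852) at 0.32 (adjusted p = 0.0311), the A-type channel KCNA4 at 0.45 (adjusted p = 0.0366) and the second Kv4 pore KCND2 at 0.36 (adjusted p = 0.0454).

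All 11 EAG, ERG and ELK genes tested had a positive log2 fold change at 0.3 nM, and 5 of them rose. The ELK channel gene kcnh3 was at 22.7, 24.4 and 21.1 CPM in 0.3 nM brains, against 14, 15.3 and 10.9 CPM in DMSO brains. Exposed values were all above DMSO values (log2 fold change 0.77, SE 0.13, adjusted p = 0.00857). KCNH1 (ENSDARG00000024167), an EAG channel, was at 27.2, 29.2 and 29.7 CPM in 0.3 nM brains, against 23.3, 22.8 and 22.4 CPM in DMSO brains (0.33, SE 0.08, adjusted p = 0.0265). KCNH8, also of the ELK group, was at 20.1, 20.3 and 21.5 CPM in 0.3 nM brains, against 12.1, 17.9 and 11.7 CPM in DMSO brains (0.58, SE 0.15, adjusted p = 0.0302). For KCNH8 the DMSO brains spread far more than the exposed ones, without reaching them. The 2 EAG genes named KCNH5 rose too, ENSDARG00000043220 by 0.56 (adjusted p = 0.0345) and ENSDARG00000069117 by 0.47 (adjusted p = 0.0347).

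The gene that fell was KCNJ10 (ENSDARG00000090815), which encodes Kir4.1, the inward rectifier that astroglia and oligodendrocytes use to clear potassium. It was at 38.0, 40.2 and 47.1 CPM in 0.3 nM brains, against 62.8, 51.9 and 52.4 CPM in DMSO brains. All exposed brains were below all DMSO brains (log2 fold change -0.42, SE 0.10, adjusted p = 0.0243). Astroglial and oligodendrocyte markers were lower in the same libraries, as given above, and their part was not tested. None of the other 17 inward rectifiers tested, the 17 two-pore channels, the 14 auxiliary subunits or the 9 silent subunits was called at 0.3 nM. The largest change not called was that of the mechanosensitive leak channel gene KCNK10 (ENSDARG00000045956), at 3.07, 6.39 and 3.41 CPM in 0.3 nM brains, against 2.27, 2.18 and 1.60 CPM in DMSO brains (1.08, SE 0.34, adjusted p = 0.0551).

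**Figure D3:**
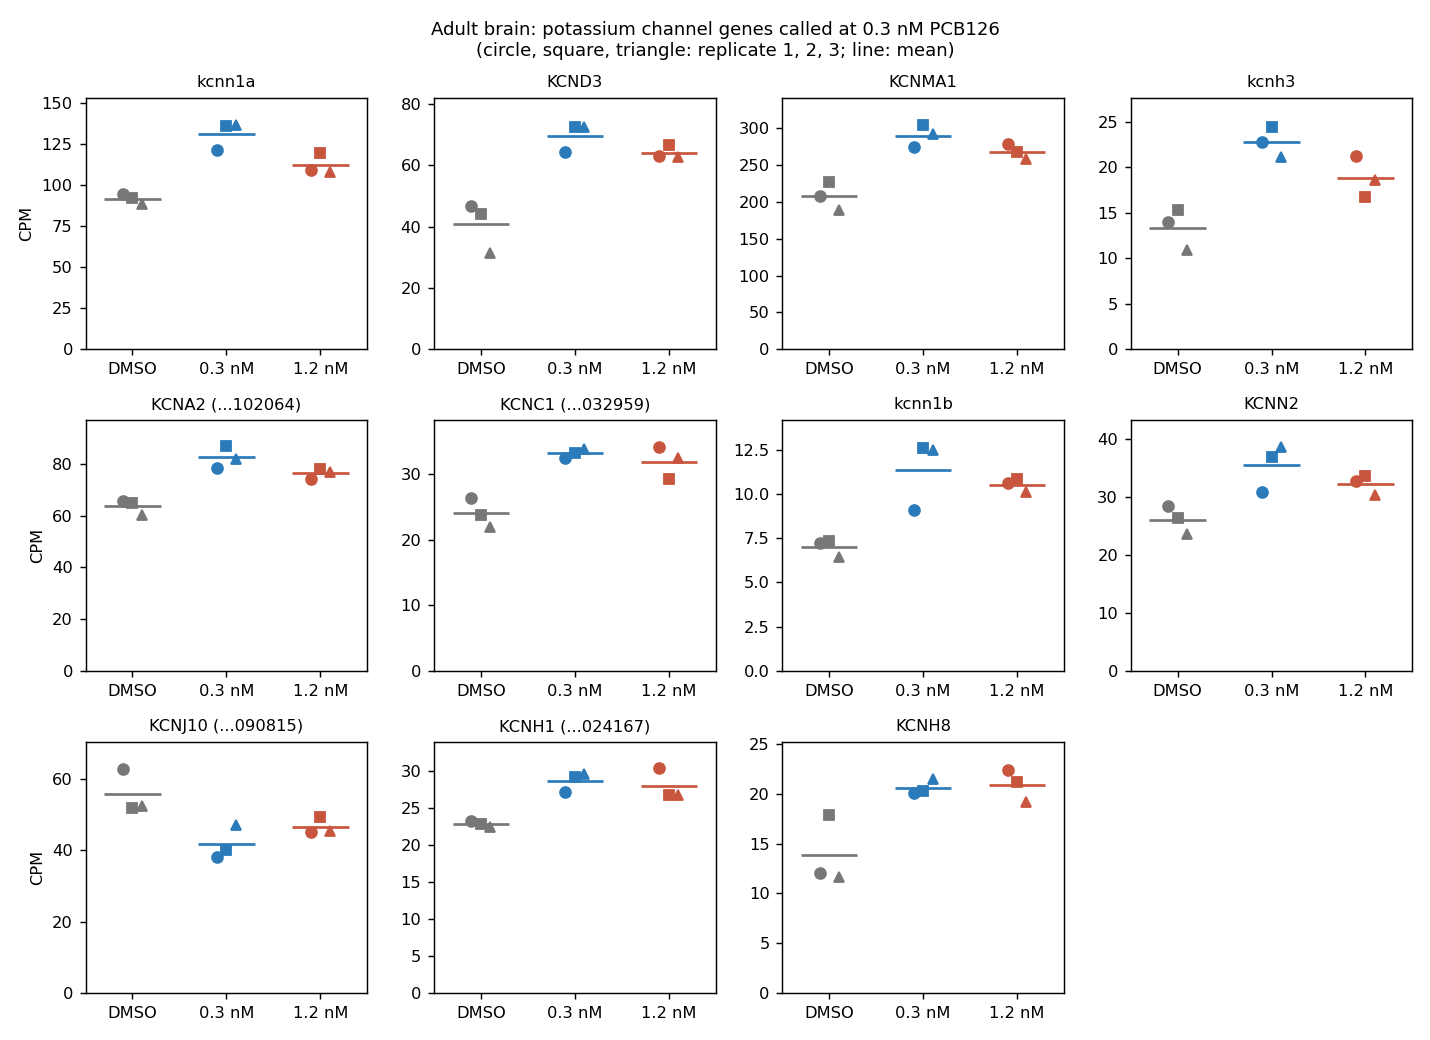
CPM in each adult brain library for 11 of the potassium channel genes called at 0.3 nM, with DMSO, 0.3 nM and 1.2 nM brains on the horizontal axis, a symbol per replicate and a line at each mean; axes start at 0. In every panel but that of KCNJ10 the 0.3 nM brains lie above all DMSO brains, and for KCNJ10 they lie below. The genes were chosen as called in these libraries, and 16.3% of all genes tested lay without overlap in each direction.

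In each of the 6 fits that left out 1 library, 6 of these genes were still called: kcnn1a, KCND3, KCNMA1, kcnh3, KCNA2 (ENSDARG00000102064) and KCNC1 (ENSDARG00000032959). Their highest adjusted p over all alternatives was between 0.0279 for kcnn1a and 0.0455 for KCNC1.

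At 1.2 nM, 18 of the 100 genes rose and 1 fell, where 5.69% of all genes tested were called higher and 3.36% lower. The median log2 fold change was 0.22 over the 100 and -0.03 over all genes. All 1.2 nM brains lay above all DMSO brains for 46 of the 100 and below them for 4, against 18.6% and 17.2% of all genes. Both doses were set against the same 3 DMSO brains, so their results are not independent. The count at 1.2 nM changed with single libraries: 2 genes were called without the third DMSO library, KCND3 among them, 3 without DMSO replicate 1, and 0 without any 1 of the 3 exposed libraries, where 38, 44 and 13 of all genes were called in place of 1769. The median over the potassium channel genes was between 0.17 and 0.25 in those fits. The shares of 5.69% and 3.36% are those of the fit with all brain libraries, and are no reference for the counts without a DMSO library.

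The class counts at 1.2 nM were 5 of 11 higher for EAG, ERG and ELK channels, 4 of 9 for calcium- or sodium-activated channels, 4 of 17 for Kv1 to Kv4 pores, 2 of 17 for two-pore channels and 1 of 18 for inward rectifiers. Auxiliary subunits had 1 higher and 1 lower of 14, and silent subunits 0 of 9. These class counts are those of the fit with all brain libraries. Few of the genes were called without the third DMSO library, as given above. KCNK13 (ENSDARG00000043557), of the two-pore THIK group, was at 3.40, 3.83 and 3.43 CPM in 1.2 nM brains, against 1.95, 1.51 and 1.69 CPM in DMSO brains. The groups were far apart for a gene of so few reads (log2 fold change 1.05, SE 0.21, adjusted p = 0.0234), and at 0.3 nM its log2 fold change was 0.25 (adjusted p = 0.482). KCNA4 was at 42.4, 38.4 and 36.4 CPM in 1.2 nM brains, against 26.0, 28.3 and 22.3 CPM in DMSO brains (0.61, SE 0.12, adjusted p = 0.0235). KCND3 was at 62.9, 66.5 and 62.6 CPM in 1.2 nM brains, against 46.9, 44.2 and 31.2 CPM in DMSO brains (0.65, SE 0.13, adjusted p = 0.0235). Exposed and DMSO brains did not overlap for either of these A-type channel genes.

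KCNAB3, a beta subunit that binds Kv1 channels, was at 29.8, 33.8 and 32.3 CPM in 1.2 nM brains, against 23.7, 25.6 and 22.5 CPM in DMSO brains (log2 fold change 0.42, SE 0.08, adjusted p = 0.0244). The ELK channel gene KCNH4 (ENSDARG00000062565) was at 12.2, 11.1 and 11.5 CPM in 1.2 nM brains, against 7.07, 8.98 and 6.68 CPM in DMSO brains (0.62, SE 0.13, adjusted p = 0.0250). In both genes the lowest exposed brain was above the highest DMSO brain. KCNC1 (ENSDARG00000032959) was at 34.1, 29.1 and 32.4 CPM in 1.2 nM brains, against 26.4, 23.7 and 21.9 CPM in DMSO brains (0.41, SE 0.09, adjusted p = 0.0287). KCNMA1 was at 279, 268 and 258 CPM in 1.2 nM brains, against 208, 227 and 189 CPM in DMSO brains (0.37, SE 0.08, adjusted p = 0.0294). These Kv3 and BK pore genes again stood above all DMSO brains.

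The ERG channel gene kcnh7 was at 77.1, 65.8 and 72.1 CPM in 1.2 nM brains, against 53.0, 55.8 and 39.0 CPM in DMSO brains, without overlap (log2 fold change 0.54, SE 0.13, adjusted p = 0.0343). KCNK10 (ENSDARG00000062849) was at 53.2, 45.1 and 50.1 CPM in 1.2 nM brains, against 39.5, 41.2 and 33.4 CPM in DMSO brains (0.38, SE 0.09, adjusted p = 0.0345). The inward rectifier gene kcnj19a was at 15, 13 and 11.7 CPM in 1.2 nM brains, against 9.97, 9.66 and 8.66 CPM in DMSO brains (0.49, SE 0.12, adjusted p = 0.0348). Both were above every DMSO brain. The remaining genes that rose were kcnn1b (0.58), KCNH8 (0.60), kcnn1a (0.29), KCNA2 ENSDARG00000102064 (0.26), kcnh3 (0.50), KCNH1 ENSDARG00000024167 (0.30) and KCNT1 ENSDARG00000104868 (0.35), with adjusted p between 0.0319 and 0.0491. The gene that fell was kcnip3b, of the calcium-binding subunits of Kv4 channels, at 12.4, 12.1 and 9.74 CPM in 1.2 nM brains, against 17.6, 15.9 and 14 CPM in DMSO brains (-0.47, SE 0.13, adjusted p = 0.0428). The largest change not called was that of the sodium-activated kcnt2a, at 1.43, 2.06 and 1.58 CPM in 1.2 nM brains, against 2.95, 1.61 and 6.87 CPM in DMSO brains, which overlapped (-1.17, SE 0.47, adjusted p = 0.139). Its highest DMSO value was in the third library.

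The 2 doses were also compared directly in brain, with 1.2 nM over 0.3 nM. None of the 100 potassium channel genes was called, where 0.0972% of all genes were; 7 had an unadjusted p under 0.05 in edgeR, and DESeq2 called 0. The smallest p was that of KCNK13 (ENSDARG00000043557), at 3.40, 3.83 and 3.43 CPM in 1.2 nM brains, against 2.11, 1.80 and 2.22 CPM in 0.3 nM brains (log2 fold change 0.80, SE 0.21, adjusted p = 0.252). Next was kcnn1a, at 109, 119.8 and 108 CPM in 1.2 nM brains, against 121, 136 and 137 CPM in 0.3 nM brains (-0.23, SE 0.08, adjusted p = 0.403). The dose groups did not overlap for either gene, but neither difference passed the adjustment. Of the 100, 8 lay without overlap higher at 1.2 nM and 5 lower, against 8.87% and 8.56% of all genes. The largest fitted change was that of the leak channel gene KCNK18, at 1.21, 0.118 and 0.480 CPM in 1.2 nM brains, against 2.04, 0.646 and 1.41 CPM in 0.3 nM brains, with overlap (-1.16, SE 0.87, adjusted p = 0.709).

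Genes whose products work with potassium channels were read alongside. Of 57 listed, 43 matched a gene and 42 were tested in brain. At 0.3 nM 6 of them rose and 1 fell, and at 1.2 nM 4 rose and 2 fell, with median log2 fold changes of 0.09 and 0.15. In the fits with all brain libraries, 7.82% of all genes tested were called higher and 5.9% lower at 0.3 nM. At 1.2 nM these shares were 5.69% higher and 3.36% lower. Without the third DMSO library, 2 rose and 1 fell at 0.3 nM, and 1 rose and 2 fell at 1.2 nM. At 0.3 nM the count called in either direction was 2 without DMSO replicate 1 or replicate 2 of the exposed brains and 3 without replicate 3, and at 1.2 nM it was 3 without DMSO replicate 1 and 12 without DMSO replicate 2. Without any 1 of the 1.2 nM libraries, none was called at that dose, where 13 to 44 of all genes were. The list for anchors of the axon initial segment, where Kv7 channels are held by ankyrin G, also held the ankyrin 2 genes ank2a and ank2b. It had 4 of 8 called higher at each dose, among them ank2b at both doses and ank2a at 1.2 nM. Without the third DMSO library, 2 were called higher at 0.3 nM and 1 at 1.2 nM. ANK3, a gene of ankyrin G, rose by 0.64 at 0.3 nM (SE 0.10, adjusted p = 0.00690) and by 0.57 at 1.2 nM (SE 0.10, adjusted p = 0.0185). Without the third DMSO library it rose by 0.53 (adjusted p = 0.00439) and 0.46 (adjusted p = 0.0206). The other ankyrin 3 gene listed, ank3b, was not called at 0.3 nM (0.23, adjusted p = 0.116) or at 1.2 nM (0.29, adjusted p = 0.0722). The gene ank2b rose by 0.55 at 0.3 nM (SE 0.12, adjusted p = 0.0151), or by 0.43 without the third DMSO library (adjusted p = 0.0198). ADAM22, a receptor in the axonal Kv1 complex, rose by 0.29 at 0.3 nM (SE 0.08, adjusted p = 0.0366), a call that was lost without the third DMSO library (adjusted p = 0.0669). At 1.2 nM the potassium-chloride cotransporter genes slc12a7a (-0.79, SE 0.14, adjusted p = 0.0182) and SLC12A7 (-0.84, SE 0.15, adjusted p = 0.0195) fell, and both were still called without it (adjusted p = 0.0275 and 0.0410). With 1.2 nM over 0.3 nM, no partner gene was called. The smallest p were those of atp1a3b (0.61, SE 0.11, adjusted p = 0.0937), SLC12A7 (-0.53, SE 0.16, adjusted p = 0.323) and slc12a7a (-0.37, SE 0.14, adjusted p = 0.450). Against DMSO, atp1a3b was the 1 gene that fell at 0.3 nM (-0.39, adjusted p = 0.0401), while at 1.2 nM it was not called (0.23, adjusted p = 0.205).

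Embryos and larvae showed no called change in any potassium channel gene. At 48 hpf, 106 were tested at 0.3 nM and 0 were called, where 0.00987% of all genes were; 4 had an unadjusted p under 0.05 in edgeR, and DESeq2 called 0. The smallest p and the largest change were those of KCNK18, at 0.739, 0.752 and 0.827 CPM in 0.3 nM embryos, against 1.49, 1.51 and 1.05 CPM in DMSO embryos (log2 fold change -0.80, SE 0.30, unadjusted p = 0.0226 in edgeR). KCNE4, a single-pass auxiliary subunit, was at 1.48, 1.35 and 1.36 CPM in 0.3 nM embryos, against 0.934, 0.756 and 0.878 CPM in DMSO embryos (0.70, SE 0.28, unadjusted p = 0.0274 in edgeR). The groups did not overlap for either gene, and both had few reads. Of the 106, 7 lay without overlap above DMSO embryos and 2 below, against 3.84% and 3.62% of all genes. The summed level was 568, 547 and 545 CPM in 0.3 nM embryos and 534, 569 and 483 CPM in DMSO embryos, which overlapped.

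At 5 dpf, 118 genes were tested. At 0.3 nM 0 were called, where 0% of all genes were, with 6 at an unadjusted p under 0.05 in edgeR, and at 1.2 nM 0 were called, where 0.046% of all genes were, with 4. Between 1.2 and 0.3 nM 0 were called, where 0.023% of all genes were, with 2, and DESeq2 called 0 in all 3 comparisons. The inward rectifier gene kcnj12b was at 25.6, 25.2 and 26.1 CPM in 0.3 nM larvae, against 20.1, 21.4 and 24.6 CPM in DMSO larvae (log2 fold change 0.22, SE 0.09, adjusted p = 0.995), without overlap. At that dose 7 of the 118 lay without overlap above DMSO larvae and 8 below, against 5.45% and 5.51% of all genes. The leak channel gene kcnk17, with the largest change not called, was at 0.918, 0.584 and 0.753 CPM in 0.3 nM larvae, against 0.871, 1.47 and 1.43 CPM in DMSO larvae, and overlapped (-0.71, SE 0.31, adjusted p = 0.995).

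The gene kcnq1.1, a Kv7 gene of heart and inner ear in mammals, was at 1.44, 3.29 and 1.88 CPM in 1.2 nM larvae, against 1.54, 1.33 and 1.03 CPM in DMSO larvae (log2 fold change 0.75, SE 0.30, adjusted p = 0.704), and the groups overlapped. KCNK13 (ENSDARG00000043557) had the largest change that was not called, 0.599, 0.901 and 0.915 CPM in 1.2 nM larvae, against 0.402, 0.368 and 0.635 CPM in DMSO larvae (0.80, SE 0.42, adjusted p = 0.765), and also the largest between the doses, against 0.594, 0.649 and 0.215 CPM in 0.3 nM larvae (0.76, SE 0.39, adjusted p = 0.993). Both comparisons overlapped. Between 1.2 and 0.3 nM the smallest p were those of kcna6a, at 8.92, 10.9 and 10.2 CPM in 1.2 nM larvae, against 13.7, 11.2 and 11.5 CPM in 0.3 nM larvae (-0.28, adjusted p = 0.993), and KCNK5 (ENSDARG00000023587), at 10.8, 10.3 and 11.7 CPM, against 13, 13.2 and 12.2 CPM in 0.3 nM larvae (-0.22, adjusted p = 0.993). The summed level in larvae was 1158 ± 14.6 CPM at 0.3 nM, 1174 ± 37.9 CPM at 1.2 nM and 1160 ± 16.3 CPM for DMSO (SD, n = 3 each).

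Whether the exposure effect itself differed between adult brain and larvae was tested in 1 fit of all libraries, as the effect in brain minus that in larvae. At 0.3 nM 7 of 119 genes tested differed (5.88%), where 5.71% of all genes did, so the share called in either direction was near that over all genes. Over all 22545 genes tested, 606 were called with a larger effect in brain and 682 with a smaller one. Of the 100 potassium channel genes that could be tested in brain alone, 6 differed, all with a larger effect in brain. The other 19 entered this fit through their reads in larvae and embryos, and the 1 called among them is given as values only. At 1.2 nM 1 differed (0.84%), where 1.49% of all genes did. Without the third DMSO brain library, 5 genes differed at 0.3 nM and 0 at 1.2 nM. The shares over all genes above are those of the fit with all libraries.

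For kcnn1a, the log2 fold change at 0.3 nM was 0.50 in brain and -0.00 in larvae (difference 0.50, SE 0.11, adjusted p = 0.00869). Other genes with a larger effect in brain were kcnh3 (difference 0.94, SE 0.22, adjusted p = 0.0166), KCND3 (0.66, SE 0.16, adjusted p = 0.0193), KCNA2 ENSDARG00000102064 (0.42, SE 0.11, adjusted p = 0.0313) and KCNMA1 (0.51, SE 0.14, adjusted p = 0.0372). The call of KCNMA1 was lost in most of the fits that left out a single library. The gene of too few brain reads was KCNK5 (ENSDARG00000012390), an alkaline-activated leak channel. It was at 0.192, 0.359 and 0.148 CPM in 0.3 nM brains, against 0.738, 0.519 and 0.963 CPM in DMSO brains, and at 7.71, 5.50 and 6.64 CPM in 0.3 nM larvae, against 5.49, 6.25 and 5.10 CPM in DMSO larvae (fitted difference -1.89). Its brain values rest on 20 reads or fewer in each library, so the difference is not read as an effect of exposure in brain. The largest difference not called at 0.3 nM was that of KCNJ15 (adjusted p = 0.329), and at 1.2 nM that of KCNJ2 ENSDARG00000104389 (adjusted p = 0.422), both at or near 0 in brain.

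**Figure D4:**
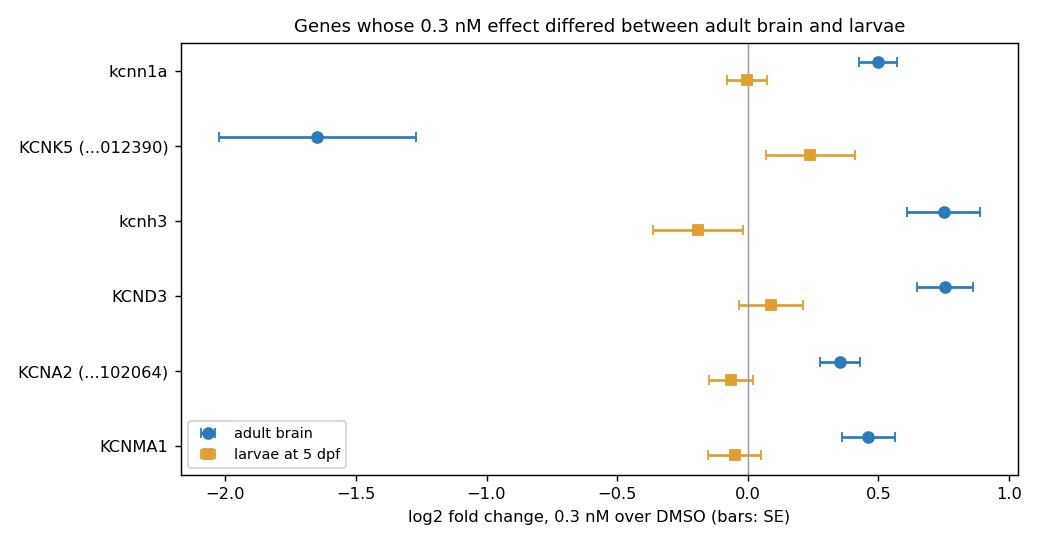
Log2 fold change of 0.3 nM over DMSO, with SE bars, in adult brain (circles) and in larvae at 5 dpf (squares). Shown are 5 potassium channel genes whose effect differed between brain and larvae, and KCNK5, which had too few brain reads for the brain fit. In the 5 genes the brain value lies between 0.35 and 0.75 and the larval value between -0.19 and 0.09. KCNK5 had 20 reads or fewer in each brain library, so its brain value of -1.65 is not read as an effect of exposure. The share of potassium channel genes that differed was 5.88%, near the 5.71% of all genes.

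Without exposure, potassium channel genes rose steeply during early development. In DMSO fish, 96 of 119 tested genes were higher and 6 lower in larvae at 5 dpf than in embryos at 48 hpf, where 32.3% of all genes were called higher and 31.4% lower. The median log2 fold change was 1.21, and 0.00 over all genes. All 19 Kv1 to Kv4 pores rose, as did 14 of 15 auxiliary subunits, 10 of 12 EAG, ERG and ELK channels, 10 of 11 silent subunits, 8 of 9 calcium- or sodium-activated channels, 6 of 7 Kv7 channels, 17 of 27 inward rectifiers and 12 of 19 two-pore channels. The 6 that fell were 3 inward rectifiers and 3 two-pore channels. Only 106 of the 119 could be tested in embryos alone. They held 19 Kv1 to Kv4 pores, 15 auxiliary subunits, 24 inward rectifiers and 13 two-pore channels. The rest were 11 EAG, ERG and ELK channels, 9 silent subunits, 9 calcium- or sodium-activated channels and 6 Kv7 channels. The genes of the 119 outside these 106 had at most 12 reads in any embryo library and passed the filter on low counts through larvae or brain. A call of higher among them is no result, and the counts and median above include them. Summed over all 126 genes, without that filter, the level was 1132 ± 14.9 CPM in DMSO larvae and 541 ± 44.0 CPM in DMSO embryos (SD, n = 3 each).

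The ELK gene KCNH4 (ENSDARG00000061990) was at 11.8, 11.9 and 11.9 CPM in larvae, against 1.14, 1.55 and 1.26 CPM in embryos (log2 fold change 3.16, SE 0.14, adjusted p = 1.88e-15). The axonal Kv1 gene KCNA1 (ENSDARG00000017108) was at 17.1, 16.3 and 19.3 CPM in larvae, against 2.67, 2.14 and 1.92 CPM in embryos (2.97, SE 0.13, adjusted p = 3.57e-15). KCNT1 (ENSDARG00000104868) was at 20.6, 22.2 and 18 CPM in larvae, against 3.43, 3.27 and 3.30 CPM in embryos (2.60, SE 0.12, adjusted p = 4.03e-15). All larvae were several-fold above all embryos for these voltage-gated and sodium-activated pores. The Kv4 partner gene kcnip3a was at 17.7, 18.6 and 19.3 CPM in larvae, against 3.43, 3.39 and 3.78 CPM in embryos (2.38, SE 0.11, adjusted p = 4.55e-15). KCNAB2, a Kv1 beta subunit, was at 11.1, 10.2 and 13.7 CPM in larvae, against 1.97, 2.14 and 2.46 CPM in embryos (2.40, SE 0.14, adjusted p = 8.06e-13). KCNK10 (ENSDARG00000062849) was at 8.56, 11.1 and 11.4 CPM in larvae, against 2.35, 2.38 and 2.10 CPM in embryos (2.18, SE 0.14, adjusted p = 1.78e-12). Larvae and embryos did not overlap for these auxiliary and leak genes either. Of all genes tested, 35.4% had all larvae above all embryos and 34.8% all below.

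The next genes of each class by p were KCNMA1 (1.21), KCNH1 ENSDARG00000024167 (1.82), KCNA1 ENSDARG00000062942 (1.85), the Kv7 gene kcnq5a (1.65), the silent subunits KCNG2 (1.30) and KCNV1 (1.47), and KCNJ6 (1.33), a G-protein-gated rectifier, all called higher in larvae. The inward rectifier gene kcnj14 was at 6.67, 7.33 and 8.20 CPM in larvae, against 0.508, 0.476 and 0.240 CPM in embryos. It had at most 8 reads in any embryo library and passed the filter through larvae or brain, so no fold change is given. KCNK3 (ENSDARG00000043466), an acid-sensitive leak channel, was at 1.24, 1.08 and 1.70 CPM in larvae and had 0, 1 and 2 reads in the 3 embryo libraries. Against the trend, the other KCNK10 gene, ENSDARG00000045956, was at 1.96, 2.16 and 1.93 CPM in larvae, against 6.35, 4.70 and 4.92 CPM in embryos (-1.40, SE 0.27, adjusted p = 7.68e-05). Lower in larvae were also KCNK6 (-0.58, adjusted p = 0.000119), kcnj11 (-0.73, adjusted p = 0.00406), the pore of ATP-sensitive channels, and KCNJ1 ENSDARG00000090866 (-1.22, adjusted p = 0.00916). The largest change not called was that of KCNK13 ENSDARG00000008212 (0.76, adjusted p = 0.0504).

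**Figure D5:**
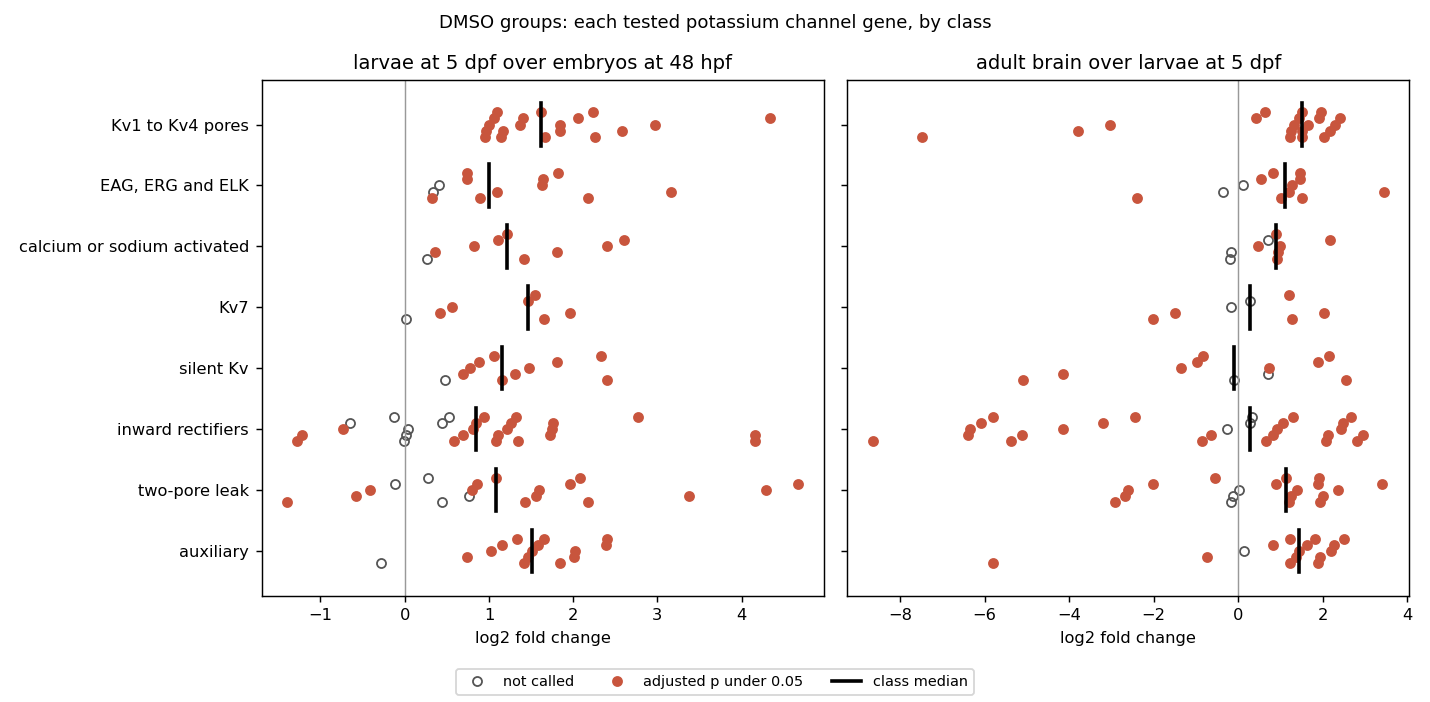
Log2 fold change of each of the 119 potassium channel genes tested in DMSO fish, for larvae at 5 dpf over embryos at 48 hpf and for adult brain over larvae at 5 dpf, by class; filled points had an adjusted p under 0.05 and bars are class medians. All 19 Kv1 to Kv4 pores are higher in larvae than in embryos. Of the inward rectifiers, 12 are higher in brain and 12 lower. Most of these lower ones had too few brain reads to be tested in brain alone, so for them the call is no result. Strongly negative values in the second panel come from genes with few or no reads in brain and depend on how the fit treats low counts. The first panel likewise includes genes with at most 12 reads in any embryo library.

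Adult brain was set against the same DMSO larvae at 5 dpf, so the comparisons between ages share these libraries. In brain 73 of 119 genes were higher and 30 lower, where 39.9% of all genes were called higher and 37.5% lower, with a median log2 fold change of 0.95 against 0.06 over all genes. Of the 100 genes that could be tested in brain alone, 73 were higher and 11 lower. These 100 were kept for their reads in brain, which favors genes high there. The shares over all genes were not restricted in that way, so they are no reference for this count. The other 19 passed the filter on low counts through larvae or embryos, so that all 19 were called lower is no result. Higher in brain were 16 of 19 Kv1 to Kv4 pores, 12 of 15 auxiliary subunits, 9 of 12 EAG, ERG and ELK channels, 6 of 9 calcium- or sodium-activated channels, 11 of 19 two-pore channels, 12 of 27 inward rectifiers, 4 of 11 silent subunits and 3 of 7 Kv7 channels. The class sizes given here include those 19 genes. Without the third DMSO brain library the count called in either direction was 104 in place of 103.

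KCNH4 (ENSDARG00000061990) was at 145, 133 and 112 CPM in brain, against 11.8, 11.9 and 11.9 CPM in larvae (log2 fold change 3.45, SE 0.10, adjusted p = 1.88e-19). KCNJ6 was at 135, 132 and 134 CPM in brain, against 22.1, 20.6 and 19.9 CPM in larvae (2.68, SE 0.08, adjusted p = 8.01e-19). KCNJ3 (ENSDARG00000062217), whose product joins that of KCNJ6 in neuronal G-protein-gated channels, was at 101, 99.7 and 91.5 CPM in brain, against 11.9, 13.7 and 12.0 CPM in larvae (2.96, SE 0.14, adjusted p = 1.55e-15). All 3 were far higher in every brain than in any larva. The leak channel gene KCNK1 was at 46.6, 42.2 and 35.1 CPM in brain, against 8.24, 7.90 and 7.89 CPM in larvae (2.36, SE 0.10, adjusted p = 3.68e-16). KCNT1 (ENSDARG00000104868) was at 88.1, 103 and 82.1 CPM in brain, against 20.6, 22.2 and 18 CPM in larvae (2.17, SE 0.09, adjusted p = 3.99e-16). KCNC1 (ENSDARG00000051852) was at 104, 108 and 92.1 CPM in brain, against 25.1, 25.3 and 23.6 CPM in larvae (2.04, SE 0.09, adjusted p = 8.85e-16). The groups did not overlap in any of these. Of all genes tested, 40.8% had all DMSO brains above all DMSO larvae and 38.5% all below. Next in their classes, and higher in brain, were kcnip1b (2.50), KCNIP4 (2.28), KCNA1 ENSDARG00000062942 (2.42), KCNG2 (2.15), KCNV1 (1.89), KCNQ3 (1.29), KCNH1 ENSDARG00000024167 (1.46), kcnn1a (0.93) and KCNK10 ENSDARG00000062849 (1.90).

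Several genes that larvae expressed were nearly absent from brain. The Kv1 gene kcna6a was at 9.15, 9.77 and 11.3 CPM in larvae and had 0, 0 and 3 reads in the 3 brain libraries. KCNJ1 (ENSDARG00000088484), of the ROMK rectifiers of kidney in mammals, was at 4.45, 5.10 and 4.64 CPM in larvae and had 2, 0 and 1 reads in brain. KCNMB2 (ENSDARG00000006568), a beta subunit of BK channels, was at 3.40, 2.95 and 2.94 CPM in larvae and had 1, 2 and 0 reads in brain. These counts are too low for a fold change in brain. The Kv1 gene kcna7 had 7, 11 and 20 reads in brain, at 0.323, 0.570 and 0.963 CPM, against 8.50, 8.55 and 8.89 CPM in larvae, with its highest brain value in the third DMSO library, which also held the most muscle markers. KCNV2 (ENSDARG00000062906), a silent subunit of photoreceptors in mammals, was at 0.0461, 0.778 and 0 CPM in brain, against 6.41, 9.84 and 11.4 CPM in larvae.

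Among genes with enough brain reads to be tested there, KCNK6 (log2 fold change -2.02, adjusted p = 6.12e-13), kcnj14 (-2.43, adjusted p = 3.64e-10) and KCNMB2 ENSDARG00000001712 (-0.73, adjusted p = 0.00392) were lower in brain. KCNK5 (ENSDARG00000012390) had 16, 10 and 20 reads in brain, against 84, 87 and 66 reads in larvae, and no fold change is given for it or for the next genes. The ERG channel gene kcnh6b had 4, 5 and 4 reads in brain, against 14, 16 and 18 reads in larvae. The Kv7 genes had as few, kcnq1.1 with 5, 6 and 8 reads in brain, against 23, 18 and 13 reads in larvae, and kcnq1.2 with 5, 5 and 12 reads in brain, against 17, 12 and 14 reads in larvae. The silent subunit gene kcng4b was at 0, 0.363 and 0.0963 CPM in brain, against 2.81, 2.30 and 3.02 CPM in larvae. The largest change not called was that of KCNG1, at 1.25, 1.97 and 1.78 CPM in brain, against 1.31, 0.575 and 1.16 CPM in larvae, with overlap (0.70, SE 0.45, adjusted p = 0.161).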

How the data were processed

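Whole-number read counts per gene were deposited by the authors, 1 file per library. Per the submitters' processing notes, reads were checked with FastQC, aligned to GRCz10 with STAR and counted with HTSeq, and edgeR was also named; tool versions and the gene annotation used for counting are unknown here. Per the labels' protocols, libraries were ribosomal RNA-depleted, stranded and read from a single end. Symbols came from names tables (26269 of 32105 genes matched), of another assembly, so no coordinates, lengths or sequences were used here.

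From the counts, edgeR 4.0.16 in R 4.3.3 gave filterByExpr, TMM scaling and robust quasi-likelihood tests, called at a Benjamini-Hochberg adjusted p under 0.05 over all genes. Each age was fitted with all its groups, and comparisons between ages with all 24 libraries. DESeq2 1.42.0 was an alternative. The fits were tested on simulated data. A first criterion was not met by a very variable simulated gene that was not called, and a looser criterion then replaced it. Libraries within a group differed beyond sampling noise, with a chi-square of at least 2.50 per degree of freedom.

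The genes and lists were chosen with earlier results of these data known. Named are all called genes where at most 24, otherwise the 2 of smallest p per class and direction, the largest change not called, the 2 of smallest p where none was called, and 3 partner genes per brain comparison. An item in these counts is not reported here.

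Same-numbered libraries deviated together at 48 hpf (correlations 0.288 to 0.396), and replicate numbers come from the titles; at other ages a pair was at or under 0.1 in every group comparison.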

Additional observations from a re-analysis of the deposited data

Results flagged for a closer look

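The genes below were called in a test of the difference in exposure effect between adult brain and larvae at 5 dpf (edgeR, adjusted over all genes). For KCNK5 the call is no result about brain, where its reads were too few. At 0.3 nM 5.88% of the 119 potassium channel genes tested differed, against 5.71% of all genes. The number called therefore does not set potassium channel genes apart. As the log2 fold change in brain minus that in larvae, the difference at 0.3 nM was 0.50 for kcnn1a, -1.89 for KCNK5 ENSDARG00000012390, 0.94 for kcnh3, 0.66 for KCND3, 0.42 for KCNA2 ENSDARG00000102064 and 0.51 for KCNMA1. In all 12 fits that left out 1 library, kcnn1a was called. KCNMA1 was called in 3 of the 12. KCNK5 had 20 reads or fewer in each brain library and entered the fit through its reads in larvae and embryos, so its difference supports no effect in brain. The brain is 1 organ and the larva a whole animal, so age and tissue cannot be told apart here.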

How the results depend on the processing

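Leaving out 1 library at a time gave 8 to 23 called genes at 0.3 nM in brain (18 with all libraries), 0 to 18 at 1.2 nM (19), 3 to 12 for the difference between ages at 0.3 nM (7) and 0 to 6 at 1.2 nM (1), 100 to 104 for brain over larvae (103) and 96 to 101 for larvae over embryos (102). The difference at 0.3 nM gave 3 without DMSO larva replicate 2, 4 without 0.3 nM larva replicate 1 and 12 without 0.3 nM brain replicate 1. At 1.2 nM it gave 6 without DMSO brain replicate 2, 1 without DMSO brain replicate 1 or 1.2 nM larva replicate 2, and 0 without any other library. A fit of the 2 groups compared gave 8 at 0.3 nM in brain. Shares over all genes are not given beside these counts. A fit of all 24 libraries, chosen after seeing the data, gave 29 at 1.2 nM. It also tested genes with too few brain reads for the brain fit, and KCNK5 ENSDARG00000012390 was among those called. For the difference at 1.2 nM, DESeq2 gave 4 and no filter on low counts gave 0. With the replicate number as a block, 11 were called at 1.2 nM and 12 at 0.3 nM in brain, where the numbers do not pair libraries, and 8 and 1 differed between ages at 0.3 and 1.2 nM. Same-numbered libraries of brains and of larvae correlated between -0.207 and 0.269. At 48 hpf, where the numbers pair libraries, 0 were called with the block and no call changed. Between ages, where same-numbered DMSO libraries correlated between -0.00912 and 0.0371, the block, added after seeing the data, gave 103 for larvae over embryos and 103 for brain over larvae. Of the values of single named genes under alternatives, 1236 kept their side of the threshold, 215 lost it and 9 gained it, and none changed direction. The coding-length alternative was not run. In brain, 26 genes with at most 20 reads in any library were too shallow to test.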
